A study of Mus musculus with 8 samples.

Results

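The core cardiac transcription factors are the DNA-binding proteins that specify heart cells and switch on their contractile genes. The members were fixed by name as Gata4, Gata5, Gata6, Nkx2-5, Tbx5, Tbx20, Hand1, Hand2, Mef2c and Srf, and all 10 were found in the table of 24385 features and among the 10018 tested genes, those whose mean over all libraries reached 1 FPKM. FPKM counts fragments per kilobase of transcript, scaled to the size of the library, so levels of different genes can be set side by side per length. The data came from RNA sequencing of mouse hearts at embryonic day 8.5 (E8.5) and 9.5 (E9.5), with 2 libraries in each of 4 groups and 8 libraries in all. The conditional knockout (cKO) hearts, labelled Mesp1Cre/+; Dgcr8-/-, carried 1 Cre allele at Mesp1, 2 floxed Dgcr8 alleles and a Rosa26 mT/mG reporter. The hearts labelled wild type (WT) carried the same floxed Dgcr8 alleles and the reporter but no Cre, as the study's methods describe the controls, so that Cre and the Mesp1 allele it replaces differed between the groups as well as Dgcr8. All hearts were on a C57BL/6 background. Cre acts in the progeny of Mesp1-expressing progenitors, whereas cells of other origin in the heart keep Dgcr8. Whether a library held 1 heart or several pooled hearts is not given in the sources used here, and p-values therefore measure the spread between these libraries, which may be in part technical.

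Dgcr8 is the RNA-binding partner of Drosha, and the pair cut primary transcripts into the hairpins from which most microRNAs are made. Heart muscle genes are read by a small set of factors that bind one another as well as DNA: GATA zinc-finger proteins, the homeodomain protein NKX2-5, T-box proteins, the basic helix-loop-helix HAND proteins and the MADS-box proteins MEF2C and SRF. Many cardiac promoters hold sites for several of them, and the factors also regulate each other's genes. The comparisons below ask whether the transcripts of these factors differed between cKO and WT hearts at each stage, and how they changed from E8.5 to E9.5.

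The promoters of 4 members are shown because the results below turn on their genes: Srf, whose product binds the CArG box; Hand2, which starts beside a long non-coding gene; and Nkx2-5 and Gata5, which differed most clearly between replicate libraries at E8.5. RefSeq gave a window of 300 bases, 250 before and 50 from the start of transcription, for 6 of the 10 members (GRCm38.p6). A search on both strands covered the GATA motif GATAA, the NK2 motif AAGTG, the T-box motif GGTGTG, the E-box CANNTG bound by HAND dimers and other basic helix-loop-helix proteins, the CArG box and the MEF2 site. Capitals mark the CArG boxes in Srf, the GATA, NK2 and E-box matches in Hand2, where the NK2 match lies inside an E-box, and the E-box in Nkx2-5 and in Gata5.
Srf, chr17:46556113-46556412, minus strand: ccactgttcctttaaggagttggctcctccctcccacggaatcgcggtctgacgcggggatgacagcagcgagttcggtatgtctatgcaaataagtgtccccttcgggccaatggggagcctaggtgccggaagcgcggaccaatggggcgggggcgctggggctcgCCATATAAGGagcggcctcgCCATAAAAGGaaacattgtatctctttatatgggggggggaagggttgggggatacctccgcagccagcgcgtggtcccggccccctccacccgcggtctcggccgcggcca
Hand2, chr8:57320733-57321032, plus strand: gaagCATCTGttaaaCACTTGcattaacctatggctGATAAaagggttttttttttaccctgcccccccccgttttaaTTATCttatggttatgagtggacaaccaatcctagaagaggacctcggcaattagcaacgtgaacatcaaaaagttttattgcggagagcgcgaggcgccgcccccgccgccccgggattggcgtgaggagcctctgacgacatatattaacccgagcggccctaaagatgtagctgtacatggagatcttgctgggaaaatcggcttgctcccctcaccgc
Nkx2-5, chr17:26841516-26841815, minus strand: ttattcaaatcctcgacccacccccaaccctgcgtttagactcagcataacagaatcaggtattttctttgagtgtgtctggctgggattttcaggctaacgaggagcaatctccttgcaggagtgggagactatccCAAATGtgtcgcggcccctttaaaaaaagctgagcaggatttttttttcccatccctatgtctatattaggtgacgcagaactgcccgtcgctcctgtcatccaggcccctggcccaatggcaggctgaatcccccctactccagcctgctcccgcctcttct
Gata5, chr2:180334630-180334929, minus strand: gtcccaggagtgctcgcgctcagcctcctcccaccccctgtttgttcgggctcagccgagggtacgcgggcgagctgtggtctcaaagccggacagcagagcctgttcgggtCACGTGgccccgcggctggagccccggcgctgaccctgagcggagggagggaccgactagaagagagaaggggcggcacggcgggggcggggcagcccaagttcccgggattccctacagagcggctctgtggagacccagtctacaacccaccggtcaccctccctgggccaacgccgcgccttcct

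The Srf window held 2 CArG boxes, a motif found in 1.63% of the 32851 promoter windows of the same length, and 1 NK2 match left in lower case. The Hand2 window held 2 GATA matches, against 25.4% of windows with the motif, 1 NK2 match, against 46.4%, and 2 E-boxes, against 72.3%. The Nkx2-5 and Gata5 windows held 1 E-box each and none of the other motifs. The Tbx20 window held none of the 6 motifs. Mef2c has 3 listed starts, whose windows held 3 NK2, 2 GATA, 1 T-box and 3 E-box matches between them, the NK2 match at the first start lying inside an E-box. The T-box motif was present in 19% and the MEF2 site in 3.19% of all windows, and no member's window held a MEF2 site. A match describes letters only and is not evidence of binding.

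The libraries set limits on what can be read from these genes. Relative depth, read from the steps between low FPKM values, spanned 1 to 1.45, and the median FPKM of the tested genes fell from between 7.62 and 9.90 in the E8.5 libraries to between 3.85 and 4.50 in the E9.5 libraries. Every stage comparison is therefore set beside the change of the median gene. Dgcr8 itself measured 7.10 and 8.60 FPKM in WT against 1.64 and 4.67 FPKM in cKO at E8.5, and 3.49 and 3.23 against 1.15 and 1.77 FPKM at E9.5. The libraries did not overlap at either stage, but with log2 differences of -1.19 (adjusted p = 0.59, limma with Benjamini-Hochberg adjustment) and -0.84 (adjusted p = 0.318) the gene did not pass the test. The 9 cardiomyocyte markers were all above 0 in all 8 libraries and summed to at least 25772 FPKM, and the 6 neural and neural crest markers summed to at most 1.47 FPKM. In these whole-heart samples, fewer cells of a type and less RNA per cell cannot be told apart.

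At E8.5 the members spanned a wide range of levels. In WT hearts the mean order was Hand1, Nkx2-5, Tbx20, Mef2c, Gata5, Tbx5, Gata4, Hand2, Srf and Gata6, from 78.9 ± 16.3 FPKM (SD, n = 2) for Hand1 down to 4.57 ± 0.44 FPKM (SD, n = 2) for Gata6. Neighbours in that order whose libraries did not overlap were Tbx20 above Mef2c, Tbx5 above Gata4 and Srf above Gata6. All other neighbouring pairs overlapped, and Nkx2-5 alone covered a range that reached from Hand1 to below Mef2c. Hand1 and Nkx2-5 held the first and second places by mean in all 4 groups, and together made up between 41.1% and 70.3% of the members' summed FPKM in a library. Hand1 had a higher mean over the 8 libraries than 89.2% of the tested genes, while Gata6 stood above 31.9%.

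**Figure D1:**
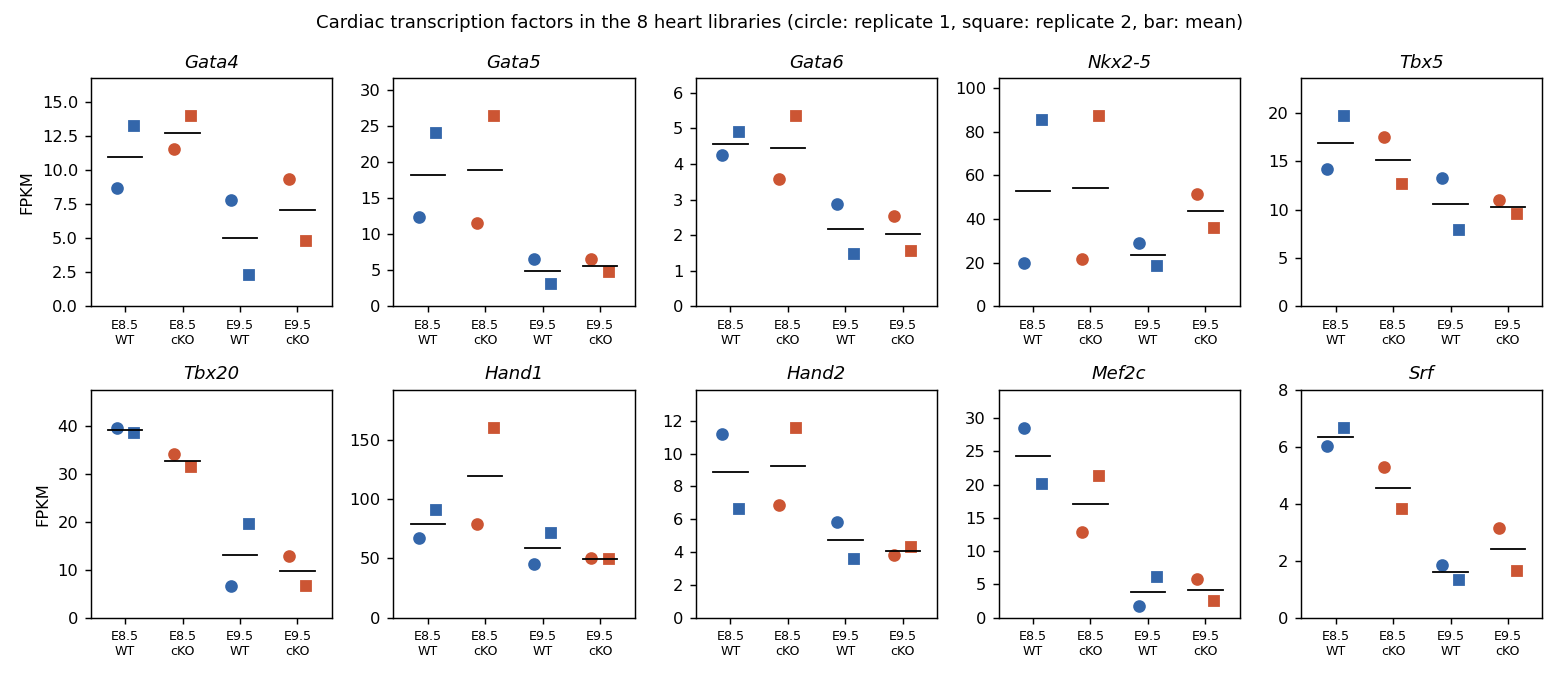
FPKM of the 10 members in each library, with 1 panel a gene, the 4 groups on the horizontal axis (WT in blue, cKO in orange), replicate 1 as a circle, replicate 2 as a square and the group mean as a bar. WT and cKO points lie among each other for most genes, the E8.5 points of Nkx2-5 split by replicate (19.7 and 21.6 against 85.6 and 87.1 FPKM), and most genes are lower at E9.5.

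None of the 10 members passed the test between cKO and WT hearts at E8.5, at E9.5, in the mean effect over both stages or in the difference of the effect between stages. In limma, a call needed an adjusted p under 0.05 and a change of at least 1.5-fold, and no member reached even an unadjusted p under 0.05 in any of these 4 comparisons. Calls were rare over all tested genes as well, with 0.00998% of the 10018 genes called at E8.5, 0.18% at E9.5, 0.0399% in the mean effect and 0.0399% in the difference between stages. The members' share of 0 calls is therefore near the background. The smallest adjusted p among the members was 0.617 at E8.5 and 0.614 at E9.5, both for Srf. The differences were spread around 0, with 5 members higher and 5 lower in cKO at each stage on the FPKM as deposited. Relative to the median gene, which was itself lower by -0.28 at E8.5 and -0.07 at E9.5 on the log2(FPKM + 1) scale, 8 members were above it at E8.5 and 7 at E9.5. After median-ratio scaling the split of members higher and lower in cKO was 8 and 2 at E8.5 and 7 and 3 at E9.5, and quantile normalization gave the same splits.

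The GATA factors bind the cardiac promoters together with NKX2-5 and T-box partners. Gata4, the member needed for ventral folding of the heart tube and for myocardial growth, measured 8.71 and 13.3 FPKM in WT hearts against 11.6 and 14.0 FPKM in cKO at E8.5, and 7.80 and 2.28 against 9.37 and 4.83 FPKM at E9.5. The genotypes overlapped at both stages. The log2 difference was 0.22 ± 0.49 (SE) at E8.5 and 0.53 ± 0.49 (SE) at E9.5, with a 95% interval at E9.5 from -0.60 to 1.67. Over the alternatives the E9.5 value ranged from -0.18 to 1.245. Gata5, a paralog expressed in endocardial and endodermal cells, measured 12.3 and 24.0 against 11.6 and 26.3 FPKM at E8.5 and 6.57 and 3.13 against 6.58 and 4.71 FPKM at E9.5. Its genotypes overlapped at both stages, and replicate 2 was 1.95-fold above replicate 1 in WT and 2.27-fold in cKO at E8.5. Gata6, which works alongside Gata4 in the myocardium and in endoderm, measured 4.26 and 4.89 against 3.59 and 5.34 FPKM at E8.5 and 2.87 and 1.48 against 2.53 and 1.55 FPKM at E9.5. It gave the narrowest fold interval of the GATA genes, 0.588-fold to 1.60-fold at E8.5. The Gata4 to Gata6 ratio, which does not depend on how a library is scaled, was 2.72 and 1.54 in WT and 3.71 and 3.11 in cKO at E9.5, without overlap, whereas at E8.5 it was 2.04 and 2.71 against 3.23 and 2.61, with overlap. How many gene pairs have the same order was not counted.

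Nkx2-5, the homeobox gene that marks cardiac progenitors and is needed for looping and chamber formation, varied more between replicates than between genotypes at E8.5. It measured 19.7 and 85.6 FPKM in the 2 WT libraries against 21.6 and 87.1 FPKM in the 2 cKO libraries. Replicate 2 was thus 4.34-fold and 4.02-fold above replicate 1, while the genotype means were 52.7 ± 46.6 and 54.4 ± 46.3 FPKM (SD, n = 2 each). At E9.5 Nkx2-5 measured 28.8 and 18.4 FPKM in WT hearts against 51.7 and 35.9 FPKM in cKO. Both cKO libraries lay above both WT libraries, as did 21% of the tested genes at that stage. The summed cardiomyocyte markers were also higher in both cKO libraries, at 80088 and 80238 FPKM against 58654 and 56835 FPKM. Most of that sum came from Actc1 and Myl7. These and Myl4, Tnni1 and Ryr2 were higher in both cKO libraries, while Tnnt2, Myh7 and Ttn overlapped. Myh6 was lower in both cKO libraries, at 424 and 567 FPKM against 916 and 777 FPKM. The part of these markers in the difference was not tested. As a log2 ratio to that sum, Nkx2-5 overlapped between genotypes at E9.5 (-10.99 and -11.59 in WT, -10.60 and -11.13 in cKO). The log2 difference of 0.87 ± 0.78 (SE) had a 95% interval from 0.53-fold to 6.34-fold and an adjusted p of 0.659 in limma.

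Few genes shared the higher E8.5 level in the libraries numbered 2. Only Nkx2-5 and Gata5 among the members were at least 1.5-fold higher in replicate 2 in both E8.5 groups, a feature singled out after the values were seen, and 3.41% of the tested genes did the same. The summed cardiomyocyte markers did not follow that order, at 25772 and 42549 FPKM in WT hearts against 56873 and 39142 FPKM in cKO. The replicate numbers did not tie the libraries together over all genes, the correlation of the replicate differences of the E8.5 groups being -0.004.

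Neither T-box gene passed the test between genotypes. Tbx5, which patterns the atria and left ventricle and acts with NKX2-5 and GATA4, measured 14.2 and 19.6 against 17.5 and 12.7 FPKM at E8.5 and 13.3 and 7.86 against 11.0 and 9.56 FPKM at E9.5. The libraries overlapped at both stages, and the 95% interval at E9.5 ran from 0.596-fold to 1.68-fold. Tbx20, needed for myocardial proliferation and for restraining Tbx2, measured 39.6 and 38.6 FPKM in WT hearts against 34.1 and 31.5 FPKM in cKO at E8.5. All Tbx20 values were thus lower in cKO at that stage, together with 40.1% of the tested genes, and the log2 difference of -0.25 stood beside a median gene at -0.28. At E9.5 Tbx20 measured 6.71 and 19.6 FPKM in WT hearts against 12.8 and 6.70 FPKM in cKO, and the genotypes overlapped.

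Hand1, which marks the outer curvature of the left ventricle and is also a trophoblast gene, measured 67.4 and 90.4 FPKM in WT hearts against 79.0 and 160.0 FPKM in cKO at E8.5. The value of 160.0 FPKM came from the E8.5 cKO library whose 6 trophoblast markers summed to 1048 FPKM, with none at 0, against 1.90 FPKM in the other cKO library, with 2 at 0, and 43.0 and 122 FPKM in the WT libraries, with at most 1 at 0. The 7 decidual stroma markers include Cryab, which heart muscle also expresses and which measured 646 to 1455 FPKM in the E8.5 libraries, so it was left out of the sum after the values were seen. The other 6 summed to 5176 FPKM in that library, against 11.8 FPKM in the other cKO library, with 1 at 0, and 475 and 1173 FPKM in WT, and most of that came from Prl8a2, the decidual prolactin gene. Their part in the Hand1 level was not tested. Without that library the log2 difference of Hand1 between cKO and WT at E8.5 was 0.02 in place of 0.52, and without the other cKO library it was 1.025. At E9.5 Hand1 measured 45.4 and 71.7 FPKM in WT hearts against 50.5 and 49.2 FPKM in cKO, while the trophoblast markers summed to between 2.40 and 11.4 FPKM, with 1 to 3 of the 6 at 0 in each library.

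Hand2, the paralog needed for growth of the right ventricle and outflow tract and also known in decidual stroma, measured 11.2 and 6.60 FPKM in WT hearts against 6.87 and 11.6 FPKM in cKO at E8.5. At E9.5 it measured 5.84 and 3.60 against 3.81 and 4.30 FPKM. The genotypes overlapped at both stages, and the higher E8.5 cKO value again came from the library with 5176 FPKM of decidual markers other than Cryab. The WT libraries ran the other way, with 11.2 FPKM of Hand2 beside 475 FPKM of those markers and 6.60 FPKM beside 1173 FPKM. The part of decidual cells in the Hand2 level was not tested. The log2 difference was 0.05 ± 0.35 (SE) at E8.5 and -0.15 ± 0.35 (SE) at E9.5. Hand2 stood at between 0.0501 and 0.166 of the Hand1 level in a library, with the genotypes overlapping at both stages.

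The MADS-box genes completed the set. Mef2c, which drives anterior heart field and myocyte genes, measured 28.6 and 20.1 against 12.8 and 21.3 FPKM at E8.5 and 1.73 and 6.11 against 5.87 and 2.56 FPKM at E9.5. The genotypes overlapped at both stages. Srf, which binds CArG boxes in actin and smooth muscle genes with its cofactor myocardin, measured 6.04 and 6.68 FPKM in WT hearts against 5.29 and 3.83 FPKM in cKO at E8.5, and 1.87 and 1.31 against 3.16 and 1.66 FPKM at E9.5. Both cKO libraries were lower at E8.5, and the genotypes overlapped at E9.5. The effects of -0.42 ± 0.29 (SE) and 0.37 ± 0.29 (SE) differed by 0.78 ± 0.41 (SE) on the log2 scale, which did not pass the test (adjusted p = 0.742, limma). Over the alternatives the E9.5 effect ranged from 0.04 to 0.69 and the difference of effects from 0.46 to 1.11. Of the members, 2 were below WT without overlap at E8.5, beside the background of 40.1%, and 0 were above, beside 2.54%. At E9.5, 1 was above and 0 below, beside backgrounds of 21% and 31.1%.

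**Figure D2:**
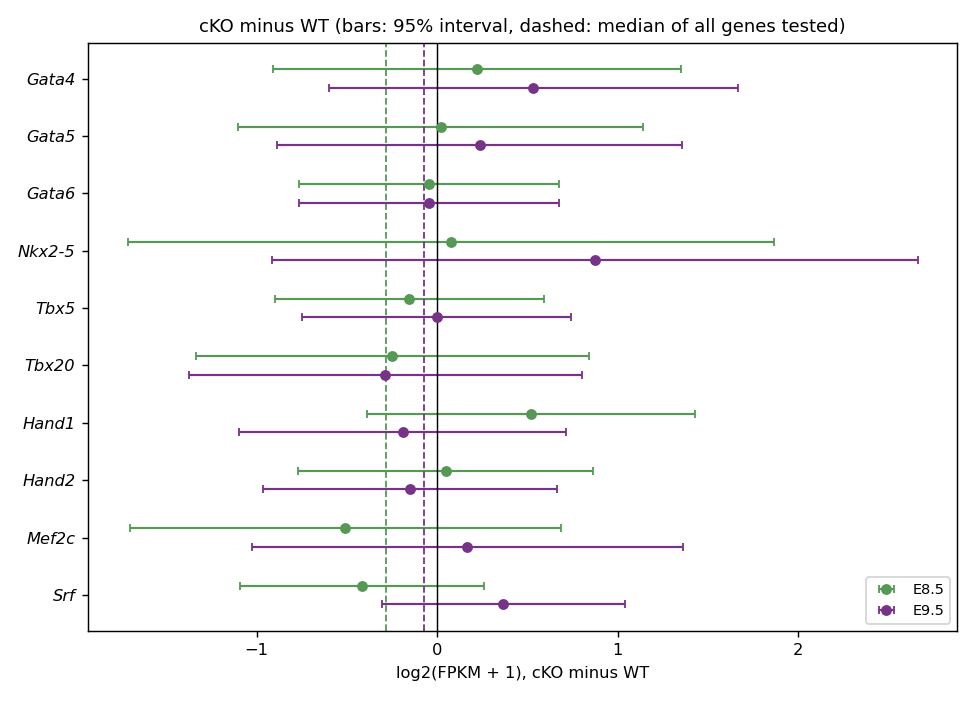
Log2 difference of cKO minus WT for each member at E8.5 (green) and E9.5 (purple), as the limma estimate with its 95% interval, and the median of all genes tested as dashed lines. Every interval covers 0, and that of Nkx2-5 is the widest, from -0.92 to 2.66 at E9.5.

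From E8.5 to E9.5 all 10 members had lower mean log2 values in WT hearts, and 4 fell past the test: Mef2c, Gata5, Tbx20 and Srf. None of the 10 was called when either E8.5 WT library or replicate 1 of the E9.5 WT was left out. Over all tested genes 46.7% were called lower and 1.4% higher in the same comparison, and the median gene moved by -0.84. The background itself rests on the scaling and on single libraries. In WT it was 4683 genes lower and 140 higher on the FPKM as deposited, 69 lower and 321 higher after median-ratio scaling, and 27 lower and 88 higher after quantile normalization. It was 28 genes lower without replicate 1 of the E8.5 WT, 184 without replicate 2 of the E8.5 WT, 48 without replicate 1 and 2204 without replicate 2 of the E9.5 WT. The members' median was -0.99. Of the 10 members, 4 lay above the median gene. Markers of other tissues moved with stage in WT as well. The decidual markers other than Cryab summed to 475 and 1173 FPKM at E8.5 against 1.77 and 6.72 FPKM at E9.5. The yolk sac endoderm markers went the other way, from 778 and 2679 FPKM to 6645 and 5003 FPKM. Their part was not tested. In cKO hearts all 10 again had lower values, and 2 fell past the test, Mef2c and Tbx20, beside 28.5% of genes called lower and 2.05% called higher and a median gene at -0.64. None was called there without either E8.5 WT library, replicate 2 of the E8.5 cKO or either E9.5 cKO library. That background was 2857 genes lower and 205 higher as deposited, 77 and 400 after median-ratio scaling and 49 and 258 after quantile normalization. It was 0 genes lower without replicate 1 and 1 without replicate 2 of the E9.5 cKO, and between 1587 and 1595 without an E8.5 WT library. The members' median there was -0.91. These stage comparisons share no libraries with each other, and the difference between them was the interaction already given, in which no member was called.

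The sizes, given here with all 8 libraries, differed among the members. Mef2c fell by 2.50 ± 0.52 (SE) on the log2 scale in WT (adjusted p = 0.0142, limma) and by 1.83 ± 0.52 (SE) in cKO (adjusted p = 0.0355). Its highest E9.5 value was 6.11 FPKM and its lowest E8.5 value 12.8 FPKM. Tbx20 fell by 1.67 ± 0.47 (SE) in WT (adjusted p = 0.0256, limma) and by 1.71 ± 0.47 (SE) in cKO (adjusted p = 0.0333), from at least 31.5 FPKM at E8.5 to at most 19.6 FPKM at E9.5. Gata5 fell by 1.71 ± 0.49 (SE) in WT (adjusted p = 0.026, limma), and its change in cKO of -1.49 ± 0.49 (SE) had an adjusted p of 0.0505. Srf fell by 1.51 ± 0.29 (SE) in WT (adjusted p = 0.0129, limma), with a value of -0.73 ± 0.29 (SE) in cKO (adjusted p = 0.0873). Against the median gene, the WT changes of these genes were -1.67 for Mef2c, -0.87 for Gata5, -0.84 for Tbx20 and -0.68 for Srf.

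The other 6 members did not pass the test in either genotype. Gata4, Gata6, Tbx5 and Hand2 had WT changes between -1.13 and -0.66, and their E9.5 libraries lay below their E8.5 libraries in both genotypes. Over all members the E9.5 libraries were lower without overlap for 8 of 10 in WT and 9 of 10 in cKO, beside 80.1% and 62.7% of the tested genes, so the members' separation in WT was near the background. Hand1 changed by -0.45 ± 0.39 (SE) in WT, where the stages overlapped, and by -1.16 ± 0.39 (SE) in cKO, where they did not. The cKO change ranged from -1.66 to -0.41 over the alternatives, and its E8.5 pair includes the library with the high trophoblast markers. Nkx2-5 stages overlapped in both genotypes, with a change of -0.02 ± 0.78 (SE) in cKO. The calls depended on the scaling. After median-ratio scaling or quantile normalization 0 of the 10 members were called at either genotype, with an unadjusted p under 0.05 for 2 members in WT and 0 in cKO after median-ratio scaling and for 1 and 0 after quantile normalization. Over all tested genes the share called lower was then 0.689% in WT and 0.769% in cKO after median-ratio scaling and 0.27% and 0.489% after quantile normalization, so that 0 of 10 was near the background. Median-ratio scaling left Mef2c at -1.62 in WT and -1.19 in cKO, and the members split into 4 higher and 6 lower in WT and into 2 higher and 8 lower in cKO. Quantile normalization gave 5 and 5 in WT and 2 and 8 in cKO.

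**Figure D3:**
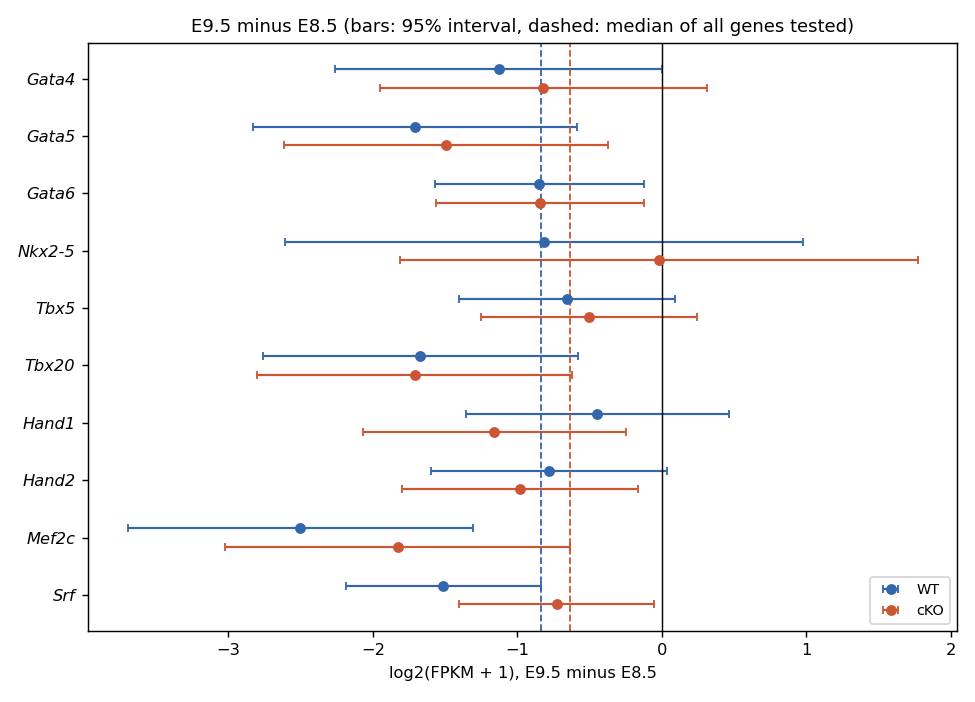
Log2 change from E8.5 to E9.5 for each member in WT (blue) and cKO (orange), as the limma estimate with its 95% interval, with the median of all genes tested as dashed lines at -0.84 and -0.64. All estimates are below 0, and those of Hand1, Tbx5, Hand2 and Nkx2-5 in WT lie to the right of the WT median.

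The ratios within a library, which carry no scaling, are given for some pairs of members as a description. How many gene pairs have the same order was not counted, so a lack of overlap is no result about these members. The Hand2 to Hand1 ratio overlapped in every comparison. The Gata4 to Gata5 ratio was 0.707 and 0.552 in WT and 1.002 and 0.531 in cKO at E8.5, against 1.19 and 0.729 in WT and 1.42 and 1.03 in cKO at E9.5, with no overlap between stages in either genotype. The Tbx5 to Tbx20 ratio went from between 0.359 and 0.514 at E8.5 to between 0.401 and 1.98 at E9.5, with no overlap between stages in cKO (0.514 and 0.402 against 0.854 and 1.43) but an overlap in WT. Set against the summed cardiomyocyte markers, 3 members at E8.5 (Tbx5, Tbx20 and Srf) and 3 at E9.5 (Tbx5, Hand1 and Hand2) had lower ratios in cKO without overlap. Over all tested genes 60.8% and 56.5% had the same order on that ratio, so that lower ratios were no more common among the members. The marker sum itself was higher in both cKO libraries at E9.5, though among the markers Myh6 was lower in both. Profiles were also compared after removing each library's median gene and each gene's own mean. Among the members the closest pair was Gata6 and Hand2, with a root mean square difference of 0.27 on the log2 scale over the 8 libraries. The closest gene outside the list lay nearer to each member than any other member did, from Mark2 for Srf at 0.06, Deaf1 for Gata6 at 0.08 and Gdpd5 for Tbx5 at 0.08 to Tbcc for Nkx2-5 at 0.36. The others were Rad17 for Tbx20, Rapgef1 for Hand2, Gnb2 for Gata4, Tmem123 for Hand1, Cul4b for Mef2c and Pithd1 for Gata5, between 0.12 and 0.19. With 8 libraries and 10018 genes to choose from, these are descriptions only.

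The genes around the members were described from lists of relatives, cofactors and known targets. Of 15 further GATA, NK2, T-box, MEF2 and Twist family genes 8 were tested, and 0 were called between genotypes. The lowest and highest differences at E8.5 were Nkx2-6 at -2.76 ± 1.24 (SE) and Gata2 at 0.58 ± 0.71 (SE), and at E9.5 Tbx3 at -1.08 ± 0.38 (SE) and Gata1 at 1.09 ± 0.60 (SE). Gata2, also known in trophoblast, measured 3.44 and 3.21 FPKM in WT against 1.57 and 15.3 FPKM in cKO at E8.5, the last in the library with 1048 FPKM of trophoblast markers, and its difference was -0.75 without that library and 1.91 without the other cKO library. Gata1 stood at 0.873 and 1.11 FPKM in the WT libraries and at 4.45 and 2.28 FPKM in the cKO libraries at E9.5. Beside it, the 6 erythroid markers were all above 0 in every library and summed to 14429 and 29566 FPKM in the WT libraries against 39583 and 29101 FPKM in the cKO libraries, with overlap, while among them Alas2, Klf1 and the embryonic globin gene Hba-x were higher in both cKO libraries, as were 21% of the tested genes. Their part was not tested. Nkx2-6, a paralog of Nkx2-5 in the posterior heart and pharynx, ranged from 4.68 to 41.2 FPKM within the E8.5 WT pair, and its difference was -1.31 without replicate 1 of that pair and -4.21 without replicate 2. With stage in WT, 2 of the 8 were called lower and 0 higher, the erythroid factor Gata1 and the Mef2c paralog Mef2d, beside 46.7% of the tested genes called lower, and 0 were called in cKO. Neither Gata1 nor Mef2d was called when any 1 of the 4 WT libraries was left out. After either scaling 0 of the 8 were called with stage. Nkx2-3, another NK2 relative, stood in the E8.5 libraries at 6.84 and 0.409 FPKM (WT) against 0.137 and 0.109 FPKM (cKO), a difference of -1.57 with an adjusted p of 0.59 in limma. It was -0.33 without replicate 1 of the E8.5 WT and -2.80 without replicate 2, where it passed the test (adjusted p = 0.00609) together with its mean effect and its difference between stages. Replicate 1 of the E8.5 WT, with the higher Nkx2-3 and Nkx2-6, also had 1324 FPKM of foregut endoderm markers against 698 FPKM in replicate 2. Of the 1324 FPKM, Krt8 held 652 and Krt18 held 434. The E8.5 cKO libraries ran the other way, with 980 and 848 FPKM of these markers. Their Nkx2-3 and Nkx2-6 (1.32 and 1.25 FPKM) were nevertheless below those of WT replicate 2. The part of these markers was not tested.

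Among 21 cofactors and other cardiac factors 19 were tested, with 0 called between genotypes at either stage. The lowest and highest differences at E8.5 were Isl1, the second heart field gene, at -1.09 ± 0.60 (SE) and Hey2 at 0.21 ± 0.36 (SE), and at E9.5 Isl1 at -0.77 ± 0.60 (SE) and Irx4 at 0.62 ± 0.32 (SE). Isl1 measured 21.9 and 8.02 FPKM in WT against 4.68 and 7.03 FPKM in cKO at E8.5. The difference was -1.76 without replicate 2 and -0.42 without replicate 1 of the E8.5 WT. That replicate 1 had more foregut endoderm markers than replicate 2. Both E8.5 cKO libraries also had more of these markers than replicate 2 but lower Isl1, and the part of these markers was not tested. At E9.5 the difference of Isl1 ranged from -1.44 without replicate 2 to -0.10 without replicate 1 of the E9.5 cKO, and that of Irx4 from 0.41 without replicate 1 to 0.83 without replicate 2 of the E9.5 WT. Hey2 at E8.5 was -0.30 without replicate 2 and 0.72 without replicate 1 of the E8.5 cKO. With stage 8 were called lower in WT and 0 higher: Irx4, Smarcd3, Tcf3, Ldb1, Smad4, Mkl2, Smad1 and Tead1. That count is near the 46.7% of all tested genes called lower in WT. In cKO 3 were called lower and 0 higher, Smarcd3, Mkl2 and Smad1, below the 28.5% over all tested genes. Smarcd3, the cardiac subunit of the BAF remodelling complex, fell by 2.15 ± 0.46 (SE) in WT and by 1.43 ± 0.46 (SE) in cKO. The median of the 19 was -0.93 in WT and -0.64 in cKO, beside the median gene at -0.84 and -0.64. After either scaling 0 of the 19 were called lower in either genotype, and 1 was called higher in cKO, the SRF cofactor gene Mkl1, at 1.01 after median-ratio scaling and 1.12 after quantile normalization. In WT 0 were called without either E8.5 WT library or replicate 1 of the E9.5 WT and 3 without replicate 2 of the E9.5 WT, and in cKO 0 without either E8.5 WT library, replicate 2 of the E8.5 cKO or either E9.5 cKO library.

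Of 24 genes that these factors are known to activate, 23 were tested, and 9 rose and 1 fell in WT, beside the backgrounds of 1.4% and 46.7%. They were the natriuretic peptide gene Nppa, the myosin light chain genes Myl2, Myl3 and Myl4, the heavy chain genes Myh6 and Myh7, Actc1, Tnni3 and Des, with Irx4, which is also among the cofactors, the gene that fell. In cKO 8 rose and 0 fell, beside 2.05% and 28.5%, with Nppb called in place of Myh6 and Tnni3. Nppa went from between 25.1 and 160 FPKM at E8.5 to between 3973 and 4381 FPKM at E9.5 over all libraries, a change of 5.96 ± 0.78 (SE) in WT and 6.39 ± 0.78 (SE) in cKO. The median of the list was 0.80 in WT and 0.58 in cKO, while the members' medians were -0.99 and -0.91. Median-ratio scaling called 12 of the 23 higher in WT and 9 in cKO, beside 3.2% and 3.99% of the tested genes, and quantile normalization 1 and 3, beside 0.878% and 2.58%. With a library left out, the genes called in either direction in WT numbered 1 without replicate 1 and 2 without replicate 2 of the E8.5 WT, and 0 without replicate 1 and 4 without replicate 2 of the E9.5 WT. In cKO they numbered 4 without replicate 2 of the E8.5 cKO and 0 without either E9.5 cKO library. Between genotypes 0 of the 23 were called, with the largest values for Gja5 at -1.31 ± 0.40 (SE) and Myl7 at 0.56 ± 0.30 (SE) at E8.5, and Myh6 at -0.78 ± 0.37 (SE) and Nppb at 2.22 ± 0.77 (SE) at E9.5. Single libraries moved these values. Gja5 was -0.67 without replicate 2 and -1.96 without replicate 1 of the E8.5 cKO, Myl7 was 0.15 without replicate 1 and 0.97 without replicate 2 of the E8.5 WT, and Nppb was 1.31 without replicate 1 and 3.12 without replicate 2 of the E9.5 cKO. Myl7 was -0.68 after quantile normalization.

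The 12 known SRF targets were all tested, and 0 were called between genotypes at either stage. At E8.5 the largest values were Fhl1 at -0.80 ± 0.52 (SE) and Acta2 at 0.49 ± 0.32 (SE), and at E9.5 Vcl at -0.60 ± 0.32 (SE) and Cnn1 at 2.13 ± 0.39 (SE). Acta2 was 0.10 without replicate 1 and 0.87 without replicate 2 of the E8.5 cKO, and Vcl was -0.33 without replicate 2 and -0.87 without replicate 1 of the E9.5 WT. Cnn1, the smooth muscle calponin gene, measured 145 and 167 FPKM in WT hearts against 665 and 708 FPKM in cKO at E9.5, with an adjusted p of 0.0893 in limma. Over 17 alternatives its adjusted p in limma ranged from 0.0205 to 0.657, the highest without replicate 1 of the E9.5 cKO, and 3 gave a call: median-ratio scaling (0.0479) and leaving out replicate 1 (0.0207) or replicate 2 (0.0205) of the E8.5 cKO. In the same libraries Srf measured 1.87 and 1.31 against 3.16 and 1.66 FPKM. With stage 3 of the 12 fell and 0 rose in WT, namely Fhl1, Csrp1 and Actg2, a smaller share than the 46.7% of tested genes called lower, with 1.4% called higher. In cKO 4 rose, Acta2, Acta1, Tagln and Cnn1, and 1 fell, Actg2, beside 2.05% of the tested genes higher and 28.5% lower. Median-ratio scaling gave 2 higher and 0 lower in WT and 4 higher and 0 lower in cKO, and quantile normalization gave 0 and 0 in WT and 1 and 0 in cKO. Of the 12, 0 were called in WT without replicate 1 of the E8.5 WT or of the E9.5 WT, 1 without replicate 2 of the E8.5 WT, and in cKO 3 without replicate 2 of the E8.5 cKO and 0 without either E9.5 cKO library. The difference of the cKO effect between stages passed the test for 0 of the 12. For Cnn1 that difference ranged from 1.42 without replicate 2 to 2.62 without replicate 1 of the E8.5 cKO, and its adjusted p in limma from 0.0474 to 0.998 over 16 alternatives, of which only leaving out replicate 1 of the E8.5 cKO gave a call. The mean effect of Cnn1 had an adjusted p from 0.0328 to 0.494 and was called in 1 of 16 alternatives, without replicate 2 of the E8.5 cKO.

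**Figure D4:**
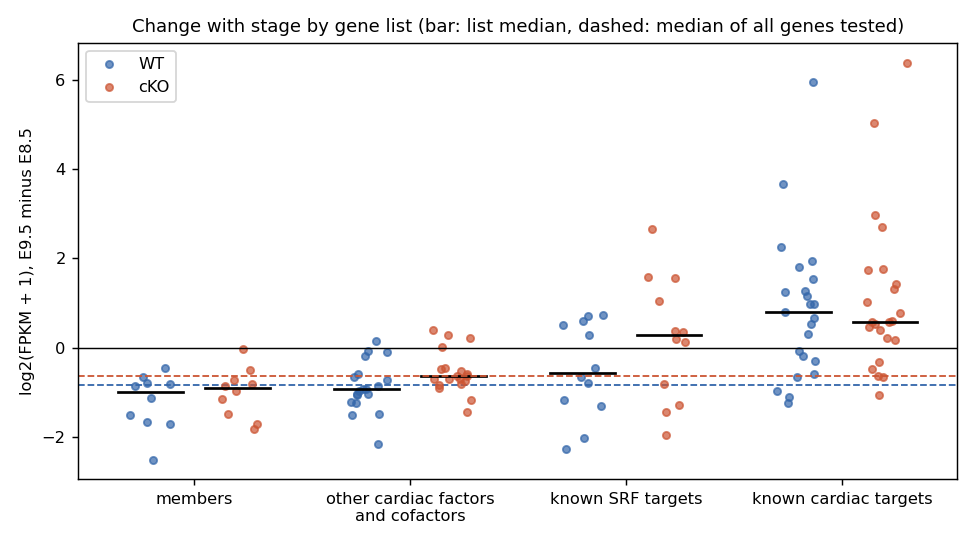
Log2 change from E8.5 to E9.5 of the 10 members, 19 cofactors, 12 known SRF targets and 23 known cardiac targets, with 1 point a gene, WT in blue and cKO in orange, the list median as a bar and the median of all genes tested as dashed lines. The members' medians lie near the dashed lines at -0.99 and -0.91, and those of the cardiac targets lie above 0 at 0.80 and 0.58.

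Long non-coding genes start close to a number of the members, and the values of these neighbours were looked at after the members' own. Within 2000 bases of a member the table listed 5 other genes: LOC102636514 beside Hand2, 1010001N08Rik beside Gata6, Gata5os beside Gata5, and Cul9 and Mir6976 at Srf. RefSeq names the first Hand2os1, also called Uph, a long non-coding gene that runs away from Hand2 on the other strand, with 123 bases between the starts of transcription, a stretch that lies within the Hand2 window printed above. The second is Gata6os, whose listed locus overlaps that of Gata6 by 58 bases. The library kit does not mark strand, so reads from an overlap cannot be told apart. Gata5os, which overlaps Gata5 by 1823 bases, stayed between 0.159 and 1.31 FPKM, Cul9 between 0.226 and 0.567 FPKM, and Mir6976 was listed at 0 in all 8 libraries.

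Hand2os1 measured 37.8 and 30.0 FPKM in WT hearts against 17.0 and 16.1 FPKM in cKO at E8.5, and 10.4 and 8.32 against 2.87 and 2.49 FPKM at E9.5. Both cKO libraries were lower at both stages, while Hand2 overlapped at both. The log2 difference was -0.98 ± 0.25 (SE) at E8.5 (adjusted p = 0.59, limma) and -1.49 ± 0.25 (SE) at E9.5 (adjusted p = 0.0796), and the mean effect was -1.24 ± 0.18 (SE) with an adjusted p of 0.083, so that Hand2os1 did not pass the test in any of these. The adjusted p of the E9.5 difference ranged from 0.0494 to 0.623 over the alternatives, and the lowest, the only one that gave a call, came from leaving out replicate 2 of the E8.5 cKO. The Hand2os1 to Hand2 ratio was 3.38 and 4.54 in WT and 2.48 and 1.39 in cKO at E8.5, and 1.79 and 2.31 against 0.753 and 0.579 at E9.5, without overlap at either stage. The share of gene pairs with that order was not counted.

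Gata6os showed the same order. It measured 22.7 and 28.0 FPKM in WT hearts against 7.44 and 13.4 FPKM in cKO at E8.5, and 7.31 and 8.66 against 3.34 and 2.82 FPKM at E9.5. The log2 difference was -1.25 ± 0.31 (SE) at E8.5 and -1.14 ± 0.31 (SE) at E9.5. The mean effect was -1.19 ± 0.22 (SE) with an adjusted p of 0.143 in limma, which did not pass, and that p ranged from 0.0401, without replicate 2 of the E8.5 cKO, to 0.494 over the alternatives. The Gata6os to Gata6 ratio was 5.34 and 5.74 against 2.07 and 2.52 at E8.5 and 2.55 and 5.86 against 1.32 and 1.81 at E9.5. Being lower in cKO without overlap at both stages was common, at 18.3% of the tested genes and 42 of the 155 tested long non-coding genes, and 0 of the 10 members did so. By size of the mean effect, 51 tested genes were at or below Hand2os1 and 71 at or below Gata6os.

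**Figure D5:**
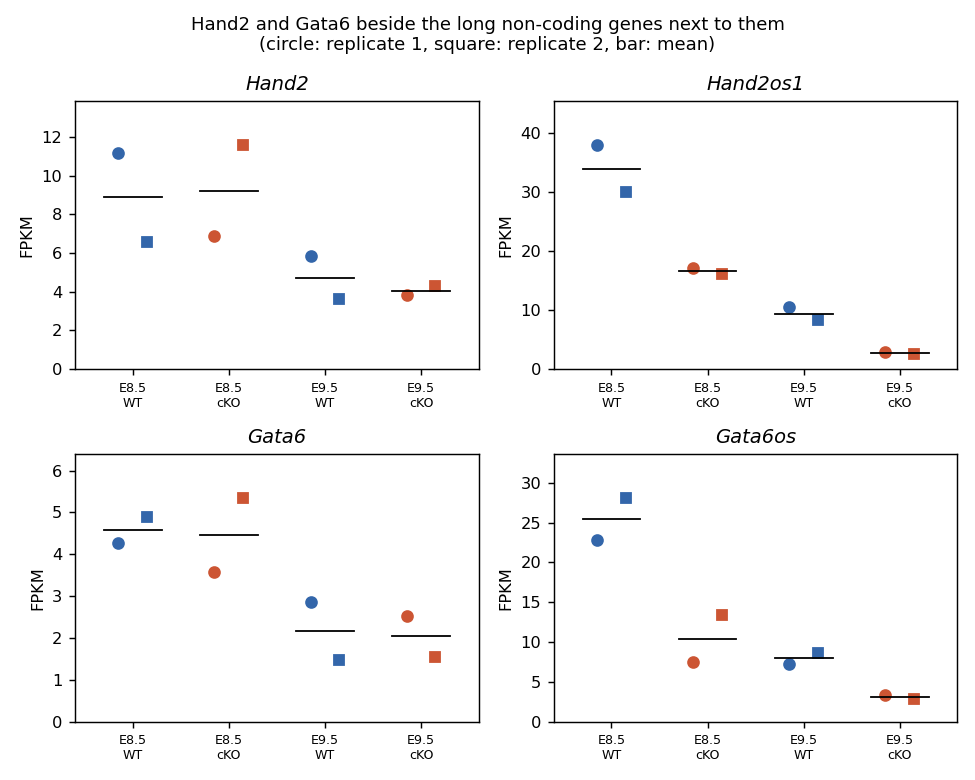
FPKM of Hand2 and Gata6 (left) and of the long non-coding genes Hand2os1 and Gata6os beside them (right) in each library, with WT in blue, cKO in orange, replicate 1 as a circle, replicate 2 as a square and the group mean as a bar. At both stages the cKO points of the long non-coding genes lie below the WT points, while those of Hand2 and Gata6 overlap with WT.

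Because Dgcr8 acts through microRNAs, the 3′ ends of the members' transcripts were searched for matches to the seeds (bases 2 to 8, in capitals) of 4 microRNAs known in heart muscle, each chosen from background knowledge for 1 member.
miR-133b-3p, for Srf: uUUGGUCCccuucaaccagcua
miR-218-5p, for Tbx5: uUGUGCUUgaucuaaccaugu
miR-27b-3p, for Mef2c: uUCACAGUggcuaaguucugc
miR-25-3p, for Hand2: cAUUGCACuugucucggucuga

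The mature sequences are from RefSeq, and the longest annotated 3′ untranslated region of each gene was searched. Of the 4 pairs that were chosen, only miR-25-3p and Hand2 had a match, and the other 3 had none. Over all 40 pairs of a microRNA and a member there were 7 with a match: Gata4 and Mef2c for miR-218-5p, Gata6 and Tbx5 for miR-27b-3p, and Gata6, Hand1 and Hand2 for miR-25-3p. Matches to these seeds were present in 7.43% of 19915 genes for miR-133b-3p, 12.5% for miR-218-5p, 14.9% for miR-27b-3p and 5.92% for miR-25-3p. The Hand2 match begins at base 118 of the untranslated region and is shown in capitals, with its surroundings: cggtttatttatGTGCAATttccttcccct. The transcripts of the members with a match did not pass the test between cKO and WT at either stage, as given above, and the microRNAs themselves were not analysed here.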

How the data were processed

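Hearts at E8.5 and E9.5 were profiled by RNA sequencing (SMARTer Ultra Low kit, total RNA). The authors deposited 1 table of FPKM values per gene for the 8 libraries. The submitters' processing notes name BWA and mm9, while the loci in the table were read as GRCm38. Of 9515 genes matched to RefSeq by symbol and chromosome, 91.3% had their end within 1000 bases of the RefSeq end. The listed loci of Gata4, Nkx2-5, Tbx5 and Srf were shorter than in RefSeq by more than that. No count table was used, so counting precision per gene is unknown. Repeated symbols were merged, leaving 24385 features, and 27 symbols turned into dates were present. limma 3.58.1 in R 4.3.3 fitted 1 mean per group to log2(FPKM + 1) with a trended, moderated variance, for the 10018 genes whose mean reached 1 FPKM, with Benjamini-Hochberg adjustment over all of them. On this scale the change of a low gene is understated. An exact permutation of 2 against 2 libraries cannot go below a two-sided p of 0.333. The model was also run on simulated data with independent errors, which does not hold the shifts between libraries seen here, so nothing is concluded from it. Groups came from the sample titles. Same-numbered replicates were not paired, as only 1 of the 6 pairs of groups had replicate differences correlated above 0.1 (-0.116 to 0.195). The rule for named genes took all members, for each the nearest profile outside the list, and of each other list the called genes or else its largest rise and fall, and Dgcr8. Members and lists were chosen with earlier results of these data known. The neighbouring genes, microRNAs and motifs were chosen after the data were seen. Alternatives were median-ratio scaling, quantile normalization, a pseudocount of 0.1, no filter, a minimum of 5 FPKM, only the compared groups, replicate blocks and leaving out each library. Promoters and microRNAs came from RefSeq tables (GRCm38.p6) and untranslated regions from GENCODE M1 transcripts. Python 3.11.15 was used for summaries.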

Additional observations from a re-analysis of the deposited data

Results flagged for a closer look

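No member was singled out here, and with 2 libraries a group none could be tested for a library far from its group. A pair of genes from the lists around the members moved in opposite directions in the groups compared. Without overlap, 40.1% of the tested genes were lower in cKO at E8.5, 21% were higher in cKO at E9.5 and 80.1% were lower with stage in WT. How many genes had opposite orders was not counted, so the pair is a description only. Smad4, the common mediator of BMP signals, was lower in both cKO libraries at E8.5 (3.83 and 4.49 against 5.67 and 5.85 FPKM) and higher in both at E9.5 (2.67 and 1.74 against 1.68 and 1.12 FPKM), a difference of effects of 0.80 ± 0.36 (SE) on the log2 scale with an adjusted p of 0.697 in limma. The WT libraries of Cnn1 stood lower at the later stage (145 and 167 against 192 and 237 FPKM) and the cKO libraries higher (665 and 708 against 351 and 152 FPKM), a difference of 2.02 ± 0.55 (SE) with an adjusted p of 0.52. Neither difference passed the test with all 8 libraries. That of Cnn1 ranged from 1.42 (adjusted p = 0.254, limma) without replicate 2 of the E8.5 cKO to 2.62 (adjusted p = 0.0474) without replicate 1, the only one of 16 alternatives with a call.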

How the results depend on the processing

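The count of 0 members called between cKO and WT, in the mean effect and in the difference between stages held under every alternative run. The 4 members called with stage in WT became 0 after median-ratio scaling, 0 after quantile normalization and 2 with no filter on low values, and ranged from 0 to 5 when a library was left out, with 0 without E8.5 WT replicate 1, E8.5 WT replicate 2 or E9.5 WT replicate 1. The 2 called in cKO became 0 after either scaling and 0 with no filter, and ranged from 0 to 4, with 0 without either E8.5 WT library, E8.5 cKO replicate 2 or either E9.5 cKO library and 4 without E8.5 cKO replicate 1. The cause was not tested. The WT change of Tbx5 turned to 0.32 after quantile normalization and that of Hand1 to 0.54 after median-ratio scaling. With a replicate block, 4 and 2 members were called with stage and 0 between genotypes, as without it. Crossed replicate numbers, added after seeing the data because of a correlation of -0.116, gave 6 and 2. A replicate block within each stage, also added, gave 0 members called between genotypes, with an adjusted p of 0.222 for Nkx2-5 at E9.5, and cannot give stage changes. Leaving out a library leaves a group with 1, which is then assumed to vary like the others. With 2 libraries a group, a missed threshold does not show equal levels, and depth per gene is unknown.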
